A study of Drosophila melanogaster with 6 samples.

Results

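The genes described here are 8 ecdysone-inducible genes outside the core transcription factor cascade of the hormone: ImpE1, ImpE2, ImpE3, ImpL2, Cyp18a1, Eip63F-1, E23 and vri. They were chosen by symbol, with earlier results of these data known, and all 8 were found among the 13955 genes counted in each library. RNA-seq was carried out on wing discs, the larval epithelia that form the adult wing and notum, with 3 libraries from Nrf2 overexpressing discs and 3 from control discs. Nrf2, called CncC in the fly and encoded by cnc, is a transcription factor of the oxidative stress response. By the Methods, Nrf2 overexpressing larvae carried hs-FLP, a tubulin-promoter Gal4 driver active throughout the body, UAS-CD8-GFP, UAS-nrf2 and tub-Gal80ts, a temperature-sensitive inhibitor of Gal4. Control larvae carried the same hs-FLP, driver, UAS-CD8-GFP and tub-Gal80ts without UAS-nrf2. All larvae were kept at 28 °C, and females were taken at the wandering stage that ends larval life. The sample labels instead call the control wild type and name yw, so that a difference in driver or strain between the groups cannot be told apart from that in Nrf2 if the labels are right. Nothing in the labels says whether the 3 libraries of a genotype come from separate crosses, and the p-values measure the spread between these libraries only.

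Ecdysone is the steroid hormone that times moulting and metamorphosis in insects. Its active form, 20-hydroxyecdysone, binds the nuclear receptor of EcR and usp, which switches on a small set of transcription factors and, with them, effector genes in each tissue. In imaginal discs, the pulse at the end of larval life starts the elongation and eversion that turn a folded disc into an appendage, and the hormone is then cleared by enzymes that it induces itself. ImpE1, ImpE2, ImpE3 and ImpL2 got their names as transcripts on membrane-bound polysomes of discs that the hormone induces, early (E) or late (L).

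Among the 8 genes, 6 were lower in Nrf2 overexpressing discs and none was higher. ImpE1, ImpE2 and ImpE3, which encode secreted or membrane proteins of the disc epithelium, fell to 4.35%, 7.39% and 8.88% of their control means. Cyp18a1, the enzyme that inactivates 20-hydroxyecdysone, fell to 13.5% of its control mean, the transcription factor gene vri to 22.2%, and ImpL2, a secreted inhibitor of insulin signalling, to 40.1%. The ABC transporter gene E23 and the calcium-binding protein gene Eip63F-1 did not pass the test. The quasi-likelihood test of edgeR was applied to TMM-scaled counts, and a gene was called at a Benjamini-Hochberg adjusted p-value under 0.05. All 8 passed edgeR's filter on low counts, Cyp18a1 only through its control libraries. Of the 8361 genes tested, 31.6% were called lower and 30.9% higher, so that a call by itself was common in this comparison. With a fold change of at most 0.5 also required, 6.78% of all genes were called lower, and the same 6 of the 8 genes. The median log2 fold change was -2.52 over the 8 genes and -0.01 over all genes tested. As the set was chosen with earlier results of these data known, these contrasts with all genes are descriptions only. Beside the count of 0 higher genes by edgeR, 1 gene, Eip63F-1, was higher at an unadjusted p-value under 0.05, and the same 1 gene was called higher by DESeq2 and by limma-voom. In the 6 lower genes, every Nrf2 overexpression library lay below every control library, which 34.9% of all genes tested also showed. No member had every Nrf2 overexpression library above every control library, which held for 33.6% of all genes.

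**Figure D1:**
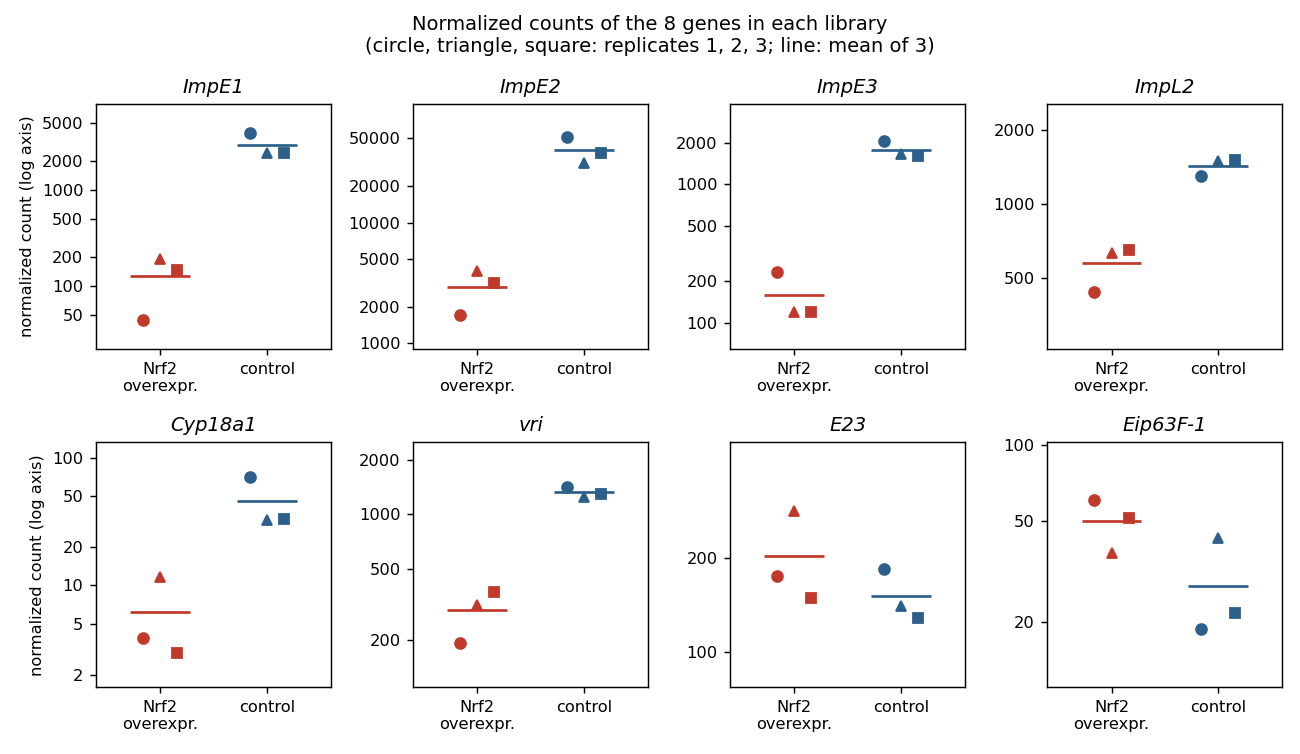
Normalized counts of the 8 genes (vertical axis, log scale) in the 3 Nrf2 overexpression libraries (red) and the 3 control libraries (blue), with replicates 1, 2 and 3 as circle, triangle and square and the mean of each genotype as a line. The genotypes do not overlap for ImpE1, ImpE2, ImpE3, ImpL2, Cyp18a1 and vri, and overlap for E23 and Eip63F-1.

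The total count lay between 16464410 and 16682764 per library. cnc had between 84044 and 172120 counts in Nrf2 overexpression and between 1777 and 1983 in control, and was lowest among the Nrf2 overexpression libraries in replicate 1. The label of the tissue was checked against 13 wing disc markers, of which 11 were found and all 11 passed the filter, with summed counts of 35900 to 42832 in Nrf2 overexpression and 30169 to 36800 in control. Of these 11 markers, 5 were called higher, 1 was called lower and 5 did not pass the test. Over all genes tested, 30.9% were called higher and 31.6% lower. Genes listed as markers of other tissues also had counts. The summed counts of 9 fat body markers were 877, 1349 and 200 in Nrf2 overexpression replicates 1 to 3 and 1251, 8242 and 177 in control replicates 1 to 3. The 4 tracheal markers found summed to 25651 to 32322 counts in Nrf2 overexpression and 18273 to 20894 in control. Of these, 3 rose, serp, verm and Gasp, and trh did not pass the test (log2 fold change 0.23, adjusted p = 0.0648, edgeR). The part of these tissues in the results was not tested. In bulk samples, fewer cells of a type and less RNA per cell cannot be told apart.

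ImpE1 (FBgn0001253, chromosome 3L from 8372405 to 8391171, plus strand, BDGP6) encodes a protein with repeats like those of the LDL receptor. It had 45, 200 and 149 counts in Nrf2 overexpression replicates 1 to 3, against 4050, 2322 and 2340 counts in control replicates 1 to 3. The lowest control library was 12.6 times above the highest Nrf2 overexpression library. Normalized counts averaged 128.3 ± 76.3 in Nrf2 overexpression and 2949 ± 897.2 in control (SD, n = 3 each), a log2 fold change of -4.52 ± 0.39 (SE; edgeR, adjusted p = 1.64e-05). This was the 17th lowest log2 fold change of all genes tested.

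ImpE2 (FBgn0001254, chromosome 3L from 3510974 to 3512681, minus strand) is a gene of 1 exon whose product is found outside the cell, at the apical side of the disc epithelium. Its counts were 1743, 4171 and 3161 in Nrf2 overexpression replicates 1 to 3 and 51939, 29727 and 36387 in control replicates 1 to 3. As in ImpE1, Nrf2 overexpression replicate 1 was the lowest library and control replicate 1 the highest. The mean was 2955 ± 1167 normalized counts in Nrf2 overexpression and 40009 ± 10172 in control (SD, n = 3 each), with a log2 fold change of -3.76 ± 0.31 (SE; edgeR, adjusted p = 1.33e-05). ImpE2 alone took 0.0182% of all counts in Nrf2 overexpression and 0.237% in control. Per exon length it was the highest of the 8 genes in both genotypes, and among the 13661 genes with a length it ranked 569 from the top in Nrf2 overexpression and 96 in control.

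ImpE3 (FBgn0001255, chromosome 3R from 8028453 to 8029546, minus strand) also has 1 exon and lies within the interval of CG2747 on the same strand, with no shared exon bases. It had 238, 125 and 120 counts in Nrf2 overexpression, against 2103, 1581 and 1536 counts in control. Here Nrf2 overexpression replicate 1 was the highest of its genotype, where it was the lowest for ImpE1 and ImpE2. Normalized counts averaged 157.5 ± 65.2 in Nrf2 overexpression and 1773 ± 258.0 in control (SD, n = 3 each), and the log2 fold change was -3.49 ± 0.23 (SE; edgeR, adjusted p = 5.35e-06). The host gene CG2747 had 1416, 1675 and 1737 counts in Nrf2 overexpression and 2058, 1661 and 1720 in control. These are counts before scaling, from which neither overlap nor separation of the genotypes is read.

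ImpL2 (FBgn0001257, chromosome 3L from 4224006 to 4236147, minus strand) encodes a secreted protein with immunoglobulin domains that binds insulin-like peptides. Its counts of 449, 658 and 657 in Nrf2 overexpression lay below those of 1324, 1425 and 1450 in control. The gap was the narrowest of the lower genes, with the lowest control library 1.99 times above the highest Nrf2 overexpression library. The mean was 575.5 ± 118.4 normalized counts in Nrf2 overexpression and 1434 ± 113.6 in control (SD, n = 3 each), a log2 fold change of -1.32 ± 0.14 (SE; edgeR, adjusted p = 4.41e-05). In control replicates 1 to 3, whose fat body marker counts were 1251, 8242 and 177, ImpL2 had 1303, 1492 and 1506 normalized counts. In Nrf2 overexpression replicates 1 to 3, with 877, 1349 and 200 fat body marker counts, it had 439.3, 633.6 and 653.5. The part of fat body in the counts of ImpL2 was not tested. The annotation places CG46460 on the same strand with 1651 shared exon bases. That gene was not analysed here, and reads of both cannot be separated.

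Cyp18a1 (FBgn0010383, chromosome X from 18688538 to 18693042, minus strand) encodes the cytochrome P450 that hydroxylates ecdysteroids at carbon 26, a step in their inactivation, and is itself induced by the hormone. It had few counts, 4, 12 and 3 counts in Nrf2 overexpression, against 72, 31 and 32 in control. The level was 6.15 ± 4.7 normalized counts in Nrf2 overexpression and 45.5 ± 21.9 in control (SD, n = 3 each). Its log2 fold change of -2.86 ± 0.51 (SE; edgeR, adjusted p = 0.000945) had the largest standard error of the 8 genes. Nrf2 overexpression replicate 2 holds most of the counts of its genotype, and without it the log2 fold change was -3.67.

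vri (FBgn0016076, chromosome 2L from 5288944 to 5311223, plus strand) encodes a bZIP repressor that is part of the circadian clock and also acts in wing development. It had 198, 325 and 373 counts in Nrf2 overexpression, against 1445, 1193 and 1240 counts in control. The control libraries were close to each other, with a coefficient of variation of 6.86%, and those of Nrf2 overexpression less so, with 30.9%. The mean was 292.6 ± 90.4 normalized counts in Nrf2 overexpression and 1320 ± 90.6 in control (SD, n = 3 each), with a log2 fold change of -2.17 ± 0.19 (SE; edgeR, adjusted p = 1.64e-05).

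E23 (FBgn0020445, chromosome 2L from 3334875 to 3354829, minus strand) encodes an ABC transporter of the White type that dampens the response to ecdysone when it is overexpressed. Its counts were 179, 294 and 150 in Nrf2 overexpression and 187, 134 and 123 in control, and the genotypes overlap. The mean was 202.5 ± 71 normalized counts in Nrf2 overexpression and 150.7 ± 29.5 in control (SD, n = 3 each). The log2 fold change was 0.43 ± 0.24 (SE; edgeR, adjusted p = 0.143), and 0.11 without Nrf2 overexpression replicate 2, the highest library.

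Eip63F-1 (FBgn0004910, chromosome 3L from 3909973 to 3935617, minus strand) encodes a calcium-binding protein with EF hands that was found as an ecdysone-induced gene of the salivary gland. It had 62, 39 and 52 counts in Nrf2 overexpression, against 19, 41 and 21 counts in control, with an overlap through Nrf2 overexpression replicate 2 and control replicate 2. The mean was 50 ± 11.6 normalized counts in Nrf2 overexpression and 27.8 ± 13.2 in control (SD, n = 3 each), with a log2 fold change of 0.85 ± 0.34 (SE; edgeR, adjusted p = 0.0523). Without control replicate 2 it was 1.30 (adjusted p = 0.00955, edgeR), and without Nrf2 overexpression replicate 2 it was 1.03 (adjusted p = 0.0437, edgeR). Control replicate 2 was also the highest control library for the summed counts of 5 sarcomere genes, which were 4479, 2358 and 1468 in Nrf2 overexpression and 1160, 2273 and 1237 in control. The 6 salivary gland markers summed to 232, 3 and 4 counts in Nrf2 overexpression and 26, 19 and 0 in control. The part of either tissue in the counts of Eip63F-1 was not tested. An annotated antisense RNA, asRNA:Eig63F-2, shares 132 exon bases with it on the opposite strand, and as the use of strand is not given in the sources used here, reads of the pair cannot be separated.

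**Figure D2:**
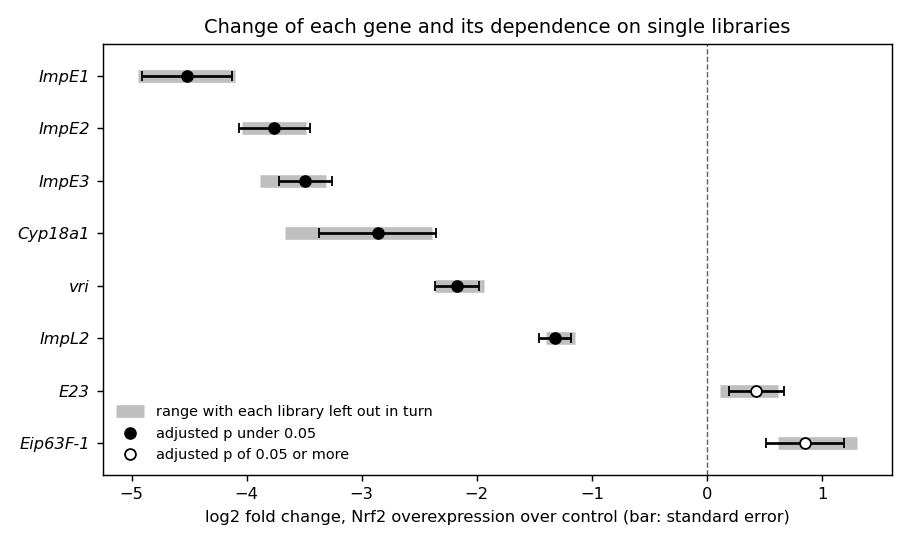
Log2 fold change of each gene, Nrf2 overexpression over control, with its standard error (bar) and the range when each of the 6 libraries was left out in turn (grey). ImpE1 lies lowest at -4.52 and ImpL2 at -1.32 among the filled points, which passed the test, and the open points of E23 and Eip63F-1 lie above 0.

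The log2 fold changes of the lower genes ran from -4.52 to -1.32. In order of log2 fold change they were ImpE1, ImpE2, ImpE3, Cyp18a1, vri and ImpL2. For each of the 5 pairs of neighbours in this order, the log2 ratio of both genes within a library, with 1 added to each normalized count, was compared between genotypes by an exact two-sided permutation test, which cannot give a p-value below 0.1 with 3 libraries against 3. The log2 ratio of vri to ImpL2 was -1.0 ± 0.18 in Nrf2 overexpression and -0.12 ± 0.21 in control (SD, n = 3 each; exact p = 0.1, adjusted over the 5 pairs 0.25). That of ImpE1 to ImpE2 was -4.67 ± 0.5 in Nrf2 overexpression and -3.77 ± 0.16 in control (SD, n = 3 each; exact p = 0.1, adjusted 0.25). In both pairs the genotypes did not overlap and the p-value was the smallest possible. All 5 pairs were taken from the order seen in these same libraries. As the p-value cannot fall below 0.1, the test cannot decide the order of these pairs either, and the lack of overlap is a description only. The genotypes overlapped for ImpE2 to ImpE3 (exact p = 1, adjusted 1), ImpE3 to Cyp18a1 (exact p = 0.6, adjusted 0.75) and Cyp18a1 to vri (exact p = 0.4, adjusted 0.667), so that the order of these neighbours is not resolved beyond the spread between libraries.

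Length-corrected levels spanned a wide range. They are given as RPKM, TMM-scaled counts divided by library size and by annotated exon length. ImpE2 had 104.1 ± 41.1 RPKM in Nrf2 overexpression and 1410 ± 358.4 in control (SD, n = 3 each). ImpE3 followed in control, with 8.67 ± 3.59 RPKM in Nrf2 overexpression and 97.6 ± 14.2 in control (SD, n = 3 each). ImpL2 had 13 ± 2.67 RPKM in Nrf2 overexpression and 32.4 ± 2.56 in control, below ImpE3 in control, while in Nrf2 overexpression the SDs of both genes overlapped and their order was not resolved. vri had 3.72 ± 1.15 RPKM in Nrf2 overexpression and 16.8 ± 1.15 in control (SD, n = 3 each). ImpE1 had 1.23 ± 0.733 RPKM in Nrf2 overexpression, below E23 at 2.37 ± 0.83, and 28.3 ± 8.62 in control, above E23 at 1.76 ± 0.345 (SD, n = 3 each). The SDs of ImpE1 and E23 overlapped in Nrf2 overexpression, although ImpE1 was the lower of the pair in each library. ImpE1 and ImpL2 overlapped in control within their SD. Cyp18a1 was the lowest of the 8 genes in Nrf2 overexpression, at 0.121 ± 0.0928 RPKM, and had 0.898 ± 0.433 in control. Eip63F-1 had 0.848 ± 0.198 RPKM in Nrf2 overexpression and 0.472 ± 0.224 in control (SD, n = 3 each), where it overlapped with Cyp18a1 within the SD.

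**Figure D3:**
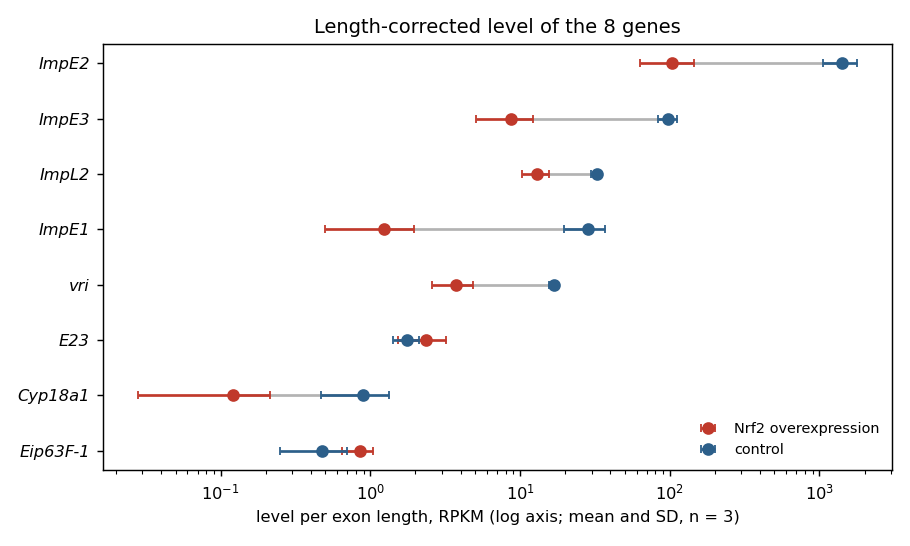
Level of the 8 genes per exon length (RPKM, horizontal log axis, mean and SD of 3 libraries) in Nrf2 overexpression (red) and control (blue), with genes from the highest control level at the top to the lowest at the bottom. ImpE2 is highest in both genotypes, at 104.1 RPKM in Nrf2 overexpression and 1410 RPKM in control, and the control order of ImpE1 above E23 is turned round in Nrf2 overexpression.

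The libraries of a genotype did not vary in the same way for all genes. The coefficient of variation in Nrf2 overexpression ran from 20.6% for ImpL2 to 76.5% for Cyp18a1, and in control from 6.86% for vri to 48.2% for Cyp18a1. For ImpE1, the highest Nrf2 overexpression library was 4.37 times the lowest, while the highest control library was 1.64 times the lowest. Nrf2 overexpression replicate 1, with the lowest cnc count, was the lowest of its genotype for ImpE1, ImpE2, ImpL2 and vri and the highest for ImpE3 and Eip63F-1. Control replicate 1 was the highest control library for ImpE1, ImpE2, ImpE3, Cyp18a1, vri and E23, and the lowest for ImpL2 and Eip63F-1.

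For each gene, the genes with the most similar profile over the 6 libraries were found by Pearson's r of the log2 normalized counts, among genes with a mean of at least 50. These values describe 6 points that share the genotype difference. The nuclear receptor gene Eip78C was among the closest to ImpE1 (r = 0.9984) and ImpE2 (r = 0.9982), with 8, 38 and 22 counts in Nrf2 overexpression and 801, 424 and 506 in control. CG5065 was as close to ImpE1 (r = 0.9984), and CG9416 to ImpE2 (r = 0.9982). The closest to ImpE3 were nemy (r = 0.9985) and CG13082 (r = 0.9983), and those to vri were CG4645 (r = 0.9985) and neo (r = 0.9976). neo, which encodes a zona pellucida domain protein of the apical matrix, had 295, 443 and 579 counts in Nrf2 overexpression and 3144, 2312 and 2313 in control. ImpL2 was closest to MetRS (r = 0.9980) and zda (r = 0.9971). The closest to Cyp18a1 were a gene with no symbol in the tables used, FBgn0038341 (r = 0.9974), and Cog7 (r = 0.9943). The closest to E23 were Atg16 (r = 0.9776) and CG43861 (r = 0.9551), and those to Eip63F-1 were CG17359 (r = 0.9785) and bt, a sarcomere gene (r = 0.9712), with 130, 72 and 74 counts in Nrf2 overexpression and 29, 77 and 28 in control.

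Of 16 listed regulators of the ecdysone cascade, 14 were tested, of which 6 fell and 5 rose, with a median log2 fold change of -0.15. Over all genes tested, 31.6% fell and 30.9% rose, and the counts of this list and of those that follow are not read as particular to them. The orphan receptor gene Hr3, which the hormone induces, had 6, 2 and 0 counts in Nrf2 overexpression, against 561, 403 and 177 in control (adjusted p = 1.66e-05, edgeR). Blimp-1, a repressor of ftz-f1, had 1, 8 and 3 counts in Nrf2 overexpression, against 665, 348 and 486 in control (adjusted p = 2.67e-06, edgeR). Hr3 and Blimp-1 passed the filter only through their control libraries, and their fitted log2 fold changes of -7.14 and -6.98 rest on these few counts. Eip78C, with 8, 38 and 22 counts in Nrf2 overexpression, also needed its control libraries to pass. The orphan receptor genes Eip78C and Hr4, also induced by the hormone, fell, with log2 fold changes of -4.72 and -4.11 (adjusted p = 1.03e-05 and 4.13e-06, edgeR), and ftz-f1, the competence factor of the prepupal stage, rose to 2538 ± 554.8 normalized counts in Nrf2 overexpression, against 371.8 ± 91.5 in control (SD, n = 3 each; adjusted p = 7.19e-06, edgeR). EcR, the receptor, rose to 5223 ± 508.7 normalized counts in Nrf2 overexpression, against 1956 ± 179.6 in control (SD, n = 3 each; adjusted p = 9.53e-06, edgeR). Its partner usp did not pass the test (log2 fold change 0.16, adjusted p = 0.0927, edgeR). Among early genes, Eip75B fell (log2 fold change -1.06, adjusted p = 0.000117, edgeR). Eip74EF did not pass the test (log2 fold change -0.15, adjusted p = 0.307, edgeR), and br was not found. The number of regulators that rose was 3 under upper-quartile scaling and 2 after correction of the fold change for exon length, and 3 without Nrf2 overexpression replicate 2 or without control replicate 3. The 6 that fell were 8 after the same correction for exon length. They were 3 with a filter of 10 counts per library, which removes Hr3, Blimp-1 and Eip78C.

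Of 19 further ecdysone-inducible genes, 11 were tested, of which 6 fell and 1 rose, with a median log2 fold change of -0.64. Ldh, also known as ImpL3 and encoding lactate dehydrogenase, had 33, 32 and 29 counts in Nrf2 overexpression, against 189, 176 and 162 in control, a log2 fold change of -2.55 ± 0.16 (SE; edgeR, adjusted p = 4.77e-06). Sb, a membrane serine protease needed for disc eversion, had a log2 fold change of -1.38 ± 0.22 (SE; edgeR, adjusted p = 0.000434). The cell death gene hid had -0.64 (adjusted p = 0.00481), and the metabolic genes MsrA and Cth had -0.71 and -0.50 (adjusted p = 0.000105 and 0.000729, edgeR). ImpL1, the gene that rose, had 40, 95 and 16 counts in Nrf2 overexpression and 13, 15 and 11 in control (log2 fold change 1.87 ± 0.56, SE; edgeR, adjusted p = 0.015), and was not called without Nrf2 overexpression replicate 2 or by limma-voom. Without Nrf2 overexpression replicate 1 or control replicate 1, 2 genes of this list rose. With a fold change of at most 0.5 also required, 2 of these genes were lower, Ldh and Sb.

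Of 3 genes listed for hormone uptake and turnover beside Cyp18a1, 2 were tested and both rose, an importer gene and a gene linked to synthesis. No further gene of turnover was tested. Cyp6t3 was not tested with a filter of 10 counts per library. Oatp74D, the ecdysone importer, rose to 5374 ± 526.2 normalized counts in Nrf2 overexpression, against 2825 ± 229.9 in control (SD, n = 3 each; log2 fold change 0.93, adjusted p = 6.55e-05, edgeR). Cyp6t3, a cytochrome P450 linked to ecdysone synthesis, had 59, 100 and 76 counts in Nrf2 overexpression and 19, 8 and 8 in control (log2 fold change 2.68, adjusted p = 0.000146, edgeR). Eo, the ecdysone oxidase gene, had at most 1 count in any library. Of 12 listed synthesis genes, most of which act in the prothoracic gland, 8 were tested, and 4 fell and 2 rose. The largest of these changes were those of phtm, the phantom hydroxylase, at -1.76, and sro, at 1.22 (adjusted p = 0.00218 and 0.000163, edgeR). phtm had few counts, 11, 19 and 7 in Nrf2 overexpression and 53, 32 and 36 in control. It was not tested with a filter of 10 counts per library. The count of 4 lower genes was 2 under total counts, at an adjusted p-value under 0.01 and when Nrf2 overexpression replicate 2 or 3 or control replicate 3 was left out.

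Genes known as partners or relatives of single members were listed in the same way. Of 10 clock genes, 5 were tested, and Pdp1, the activator that binds the same DNA element as vri, rose by a log2 fold change of 0.41 (adjusted p = 0.00745, edgeR), as did cwo (0.59, adjusted p = 0.00125) and jet (0.61, adjusted p = 0.00441). per, tim, Clk and cry had at most 9 counts in any library. dco, a clock kinase, had a log2 fold change of -0.24 (adjusted p = 0.0338, edgeR), and was not called when any single library was left out, except Nrf2 overexpression replicate 3. Of 12 insulin-like ligands and partners, 4 were tested. Ilp6, a ligand, had 13, 14 and 8 counts in Nrf2 overexpression and 46, 30 and 28 in control (log2 fold change -1.62, adjusted p = 0.00185, edgeR), and was not tested with a filter of 10 counts per library. Sdr, a secreted insulin-binding protein, rose (log2 fold change 0.72, adjusted p = 0.000945, edgeR), as did Lgr3, a relaxin-type receptor (0.53, adjusted p = 0.0205). Of these higher genes, 1 was called without Nrf2 overexpression replicate 2 or control replicate 2. Ilp8, the disc signal that delays ecdysone production in the larva, had at most 3 counts in any library. Of 12 White-type transporter genes, to which E23 is related, 8 were tested, and 3 fell and 2 rose. The largest of these changes were those of bw at -1.12 and CG17646 at -0.92 among the lower genes (adjusted p = 0.0079 and 0.00844, edgeR) and of CG32091 at 0.73 among the higher (adjusted p = 0.000223, edgeR). Of the higher genes, 1 was called without Nrf2 overexpression replicate 3, control replicate 2 or control replicate 3.

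**Figure D4:**
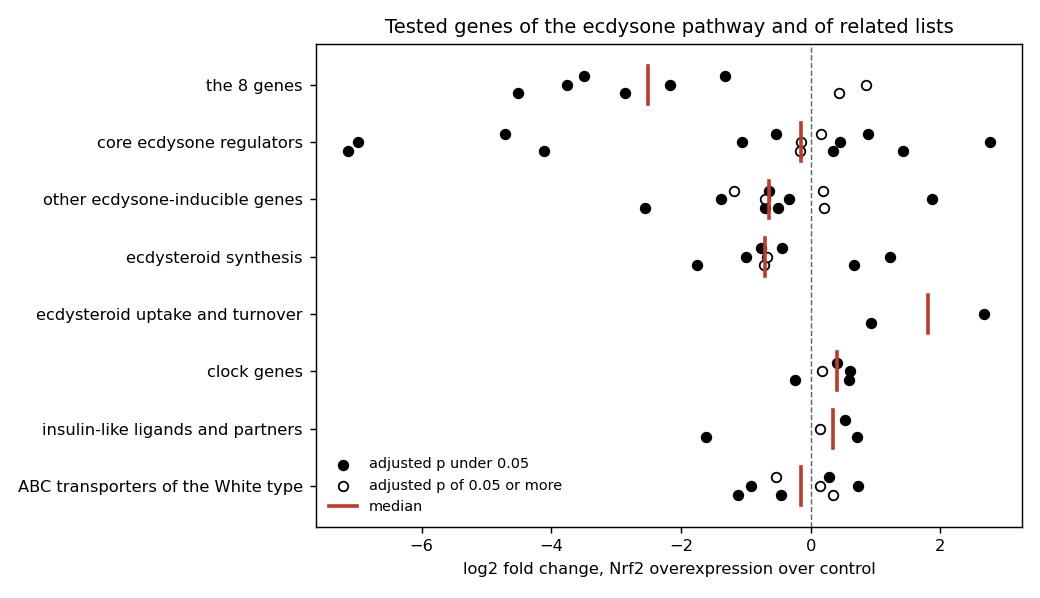
Log2 fold change, Nrf2 overexpression over control, of every tested gene of the 8 genes and of 7 related lists (rows), filled where the adjusted p-value was under 0.05, with the median of each list in red. The median of the 8 genes, -2.52, lies below those of the 7 lists, and the core regulators spread from -7.14 for Hr3 to 2.77 for ftz-f1.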

How the data were processed

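RNA-seq libraries were made from 500 ng of total RNA per sample with a TruSeq protocol. The authors deposited whole-number counts of reads per gene, without normalization, in 1 file per library; a table of the whole series with the same values was not used. The submitters' processing notes name FastQC 0.11.5, Bowtie and the build BDGP 6, while the counting tool, its filters and its use of strand are not given in the sources used here. Groups came from the sample titles and genotype labels.

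Symbols came from the reference gene table (13660 of 13955 identifiers), and positions, exon lengths and overlaps from Ensembl's annotation of the same build (13661 genes). Of 146 genes listed beside the members, 137 were found; br, nvd, wg, ap, InR and the others without a match were not analysed here. No sequence was used, and the promoter motif search that had been planned was not run.

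The test was that of edgeR 4.0.16, run in R 4.3.3 (TMM, filterByExpr, quasi-likelihood test, Benjamini-Hochberg adjustment over 8361 genes, no fold limit). The biological coefficient of variation was 0.115. Normalized counts are counts scaled to the mean effective library size. Alternatives were other scalings, DESeq2 1.42.0, limma-voom (limma 3.58.1), other filters and thresholds, fold limits of 1.4 and 0.6 or of 2 and 0.5, the replicate number as a block, each library left out, and the fold change corrected for exon length by loess (span 0.5). The procedures were also run on simulated data in which only a small share of genes changed. Scaling with as many changed genes as here was not tested. Intervals on counts are not given, and error is the spread between libraries.

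The members, lists and tests were chosen with earlier results of these data known. Genes named are the members, cnc, the listed genes that passed the test (up to 5 per list, by size of change) and list genes a sentence is about, and for each member the 2 genes of most similar profile. CG2747, which overlaps ImpE3, was named after its values were seen. The paper's Methods name no test for these data.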

Additional observations from a re-analysis of the deposited data

How the results depend on the processing

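ImpE1, ImpE2, ImpE3, ImpL2 and vri kept their direction and their call under every alternative run, and Cyp18a1 under every one in which it was tested, as requiring 10 counts per library removed it and left 5 lower genes. The number of members called lower was 6 under all others. The number called higher was 0 with upper-quartile scaling, no filter, the replicate block, removal of the exon length trend, an adjusted p-value under 0.01 and both pairs of fold limits, and 1, Eip63F-1, with DESeq2's size factors, with total counts only, with DESeq2's Wald test, with limma-voom and with 10 counts required per library. Across its alternatives the adjusted p-value of Eip63F-1 ran from 0.00955 to 0.169. Leaving out each library in turn gave 0 to 1 members called higher, with 1 without Nrf2 overexpression replicate 2 or control replicate 2. Over all genes, fold limits of 1.4 and 0.6 gave 1711 higher and 1033 lower genes, and limits of 2 and 0.5 gave 599 and 567, against 2585 and 2644 without limits, as their construction implies. Removing the slope of 0.206 per doubling of exon length moved E23 to 0.17 and Eip63F-1 to 0.70 on the log2 scale. Libraries of the same replicate number did not deviate together (r = -0.209, 0.0878 and 0.127 across genes), and the replicate block gave 2287 higher and 2320 lower genes and changed no call of a member. Among the related lists, the block left 2 of 4 lower synthesis genes, 1 of 2 higher insulin-like genes, 1 of 2 higher White-type genes and 0 of 1 lower clock genes. Leaving out single libraries gave 2171 to 2714 higher and 2208 to 2760 lower genes. Low counts limit Cyp18a1 and Eip63F-1.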
